A study of Rattus norvegicus with 125 samples.

Results

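The descending thin limb of long-loop nephrons in the inner medulla (LDLIM) was represented by 4 RNA-seq libraries, numbered 1 to 4 in the labels, of 125 samples in the series. The members are every gene measured in these 4 libraries, and the libraries were chosen by their segment label alone. They were set against the libraries of the other 13 tubule segments. Their nearest neighbours along the loop and in the tissue are the outer medullary part of the same limb (LDLOM, 9 libraries), the thin ascending limb (tAL, 7 libraries) and the inner medullary collecting duct (IMCD, 8 libraries). The other segments are the proximal tubule (S1, S2 and S3, 7 libraries each), the descending limb of short loops (SDL, 10), the thick ascending limb in its medullary (mTAL, 7) and cortical (cTAL, 7) parts, the distal convoluted tubule (DCT, 8), the connecting tubule (CNT, 6), and the cortical and outer medullary collecting duct (CCD, 11, and OMCD, 7). All came from adult male Sprague-Dawley rats of 200 to 250 g on normal chow. Tubules were microdissected after collagenase digestion, which lasted 25 minutes for cortex, 50 minutes for outer medulla and 90 minutes for inner medulla. Reverse transcription was started in the tubule lysate with a protocol made for single cells, and both ends of the cDNA were read for 50 nucleotides. Whether the numbered libraries stem from separate rats is not in the labels. The p-values therefore rest on library-to-library spread, which may be technical.

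The long descending limb dips into the inner medulla, where the interstitium is hypertonic, and its fluid loses water through the channel Aqp1 before it turns at the bend into the water-tight thin ascending limb. Cells at this depth are known to hold organic osmolytes such as sorbitol, betaine and inositol, which the tonicity-responsive factor Nfat5 helps to gather, and to be rich in chaperones. The epithelium is flat and has few mitochondria.

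Levels were deposited as RPKM, a read density scaled by transcript length and library size, and differences are given as log2(RPKM + 1) in LDLIM minus the same in the other group, with the standard error of the fit across all tubule libraries. A difference against all other segments is taken from the unweighted mean of the 13 segment means. A gene is called where limma's p, adjusted over all 11078 genes tested, is under 0.05 and the log2 difference is at least 1 in size. The read depth of each library is unknown. The number of genes at 1 RPKM or more was 7041, 5559, 7974 and 3315 in LDLIM libraries 1 to 4, against 1438 to 8574 in the other tubule libraries, whose median was 4541.

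LDLIM 4 stood apart from the other LDLIM libraries. Across the 11078 genes its Pearson's r with them was 0.504 to 0.538, whereas LDLIM 1, 2 and 3 correlated with each other at 0.728 to 0.791. Its profile was closest to the mean of SDL (r = 0.642) and of LDLOM (r = 0.637), and its r with the mean of the other 3 LDLIM libraries was 0.575. LDLIM 1 and 2 were closest to the mean of the remaining LDLIM libraries, with r = 0.801 and 0.752, and LDLIM 3 matched LDLIM and tAL almost equally, with r = 0.798 for each. In LDLIM 4, 2234 genes were under 1 RPKM that reached 1 RPKM in all of the others, against 43 to 418 such genes for each of LDLIM 1 to 3. The steps between low values gave a depth 4.11 times that of LDLIM 1, from 18 of 269 genes compared, an uncertain estimate that may be off by a whole-number factor. Of the tAL libraries, 3 also went against the rest of their group: tAL 4, 6 and 7 held 493, 4296 and 5272 RPKM of Aqp1, while the other 4 tAL libraries held 0.163 to 7.87 RPKM. Where leaving out LDLIM 4 ended a call that is described, or moved its difference by over 1.5-fold, the value without it is given. What sets these libraries apart was not tested.

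**Figure D1:**
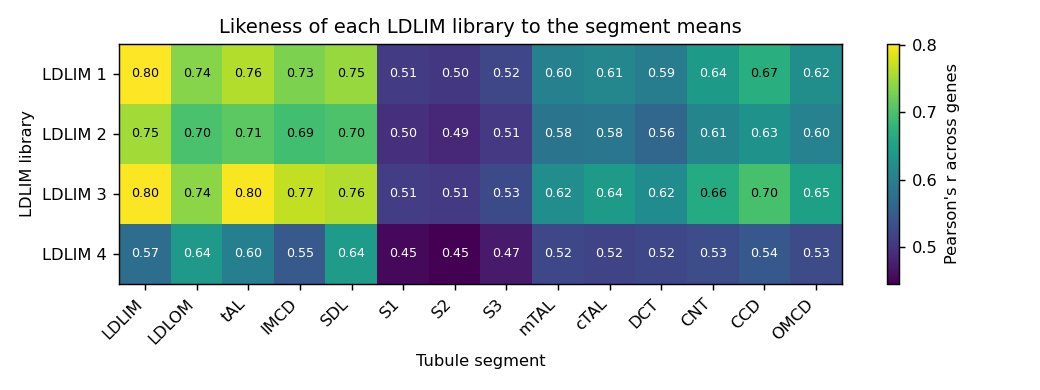
Pearson's r across 11078 genes between each LDLIM library (rows) and the mean log2(RPKM + 1) of each of 14 segments (columns), where a library is left out of its own segment's mean. LDLIM 1 to 3 are closest to LDLIM, between 0.752 and 0.801, while LDLIM 4 is closest to SDL at 0.642 and LDLOM at 0.637.

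The label was checked against Aqp1, Cxcl1 and Egfl6, the markers given for this segment, and against markers of other cells. Aqp1, the constitutive water channel, held 3524, 5284, 1735 and 3972 RPKM in LDLIM libraries 1 to 4, against a lowest of 0.00491, a median of 4.08 and a highest of 5716 RPKM in the other tubule libraries. All 4 libraries were high, and 11 other libraries, of SDL, LDLOM, tAL and S3, reached the lowest of them. LDLIM exceeded the other segments by 7.52 ± 1.02 on the log2 scale (SE; limma adjusted p = 2.3e-08), or by 7.44 without LDLIM 4. Cxcl1, a chemokine that attracts neutrophils, held 653, 829, 465 and 81.5 RPKM, against a lowest and a median of 0 and a highest of 441 RPKM in the other libraries. LDLIM 4 was the lowest of the 4, and 3 other libraries, of tAL and IMCD, reached its level. The difference was 7.91 ± 0.71 (adjusted p = 8.7e-16), or 8.65 without LDLIM 4. Egfl6, a secreted matrix protein with EGF-like repeats, was the steadiest of these markers at 117, 108, 109 and 128 RPKM, against a lowest of 0, a median of 0.136 and a highest of 207 RPKM elsewhere. Its range among the LDLIM libraries was narrow, and 4 other libraries reached it. The difference was 5.28 ± 0.98 (adjusted p = 6.7e-05).

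**Figure D2:**
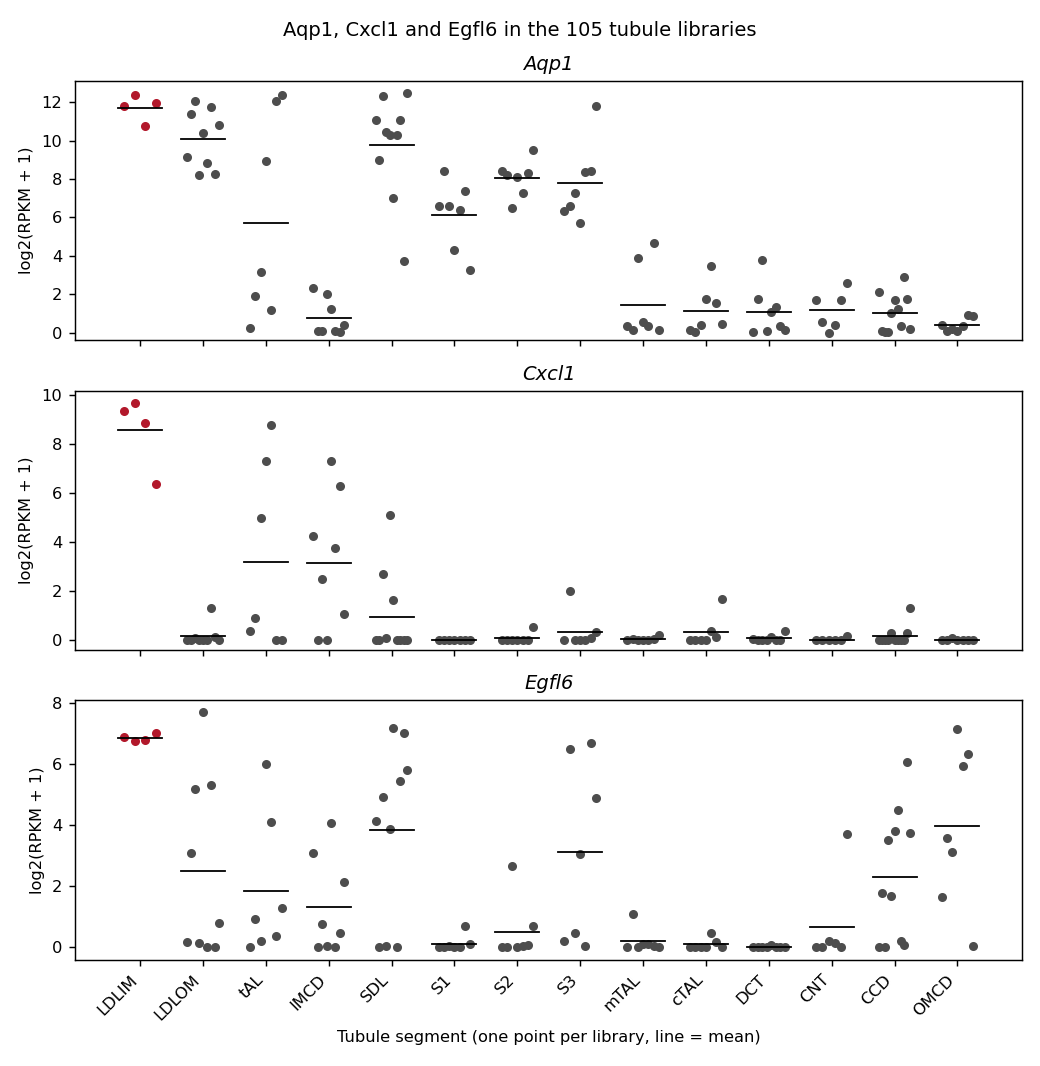
Levels of Aqp1, Cxcl1 and Egfl6 as log2(RPKM + 1) in each tubule library (points) by segment, with the mean of each segment as a line and LDLIM in red. Aqp1 is also high in LDLOM, SDL, the proximal segments and 3 tAL libraries, Cxcl1 is near 0 outside LDLIM, tAL, IMCD and a few SDL libraries, and the 4 Egfl6 values of LDLIM lie between 107.6 and 128 RPKM.

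Exact two-sided permutation tests of log2(RPKM + 1), adjusted over 9 tests, compared the 3 markers with the 3 neighbours. Against IMCD all 3 differed, with adjusted p = 0.012 for Aqp1, 0.015 for Cxcl1 and 0.012 for Egfl6. Against LDLOM, Cxcl1 (adjusted p = 0.012) and Egfl6 (0.021) differed, and Aqp1 did not pass (a log2 difference of 1.62, adjusted p = 0.076, n = 4 and 9). Against tAL, Egfl6 (0.014) and Cxcl1 (0.047) differed in these permutation tests, whereas Aqp1 did not pass (6.03, adjusted p = 0.079, n = 4 and 7). Limma, fitted across all tubule libraries, called that same difference of Aqp1 against tAL (adjusted p = 0.0026, and 0.0068 without LDLIM 4). Of the tAL libraries, 6 and 7 lay within the LDLIM range of Aqp1. Before adjustment, the smallest p that these permutation tests allow is 0.0028 for LDLOM, 0.0061 for tAL and 0.0040 for IMCD.

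Markers of other tubule cells were uneven in LDLIM. Of the proximal tubule list, 6 of 12 genes were under 1 RPKM in every LDLIM library, with the transporters Slc22a6, Slc22a8 and Slc5a1 listed at 0 throughout. The summed level of the list was 17.7 to 106 RPKM, against a lowest of 0.0344, a median of 54.7 and a highest of 42529 RPKM elsewhere, so that LDLIM 2 lay above that median. Thick ascending limb markers summed to 0.0215 to 101.4 RPKM, against a lowest of 0, a median of 45.4 and a highest of 19275 RPKM elsewhere; LDLIM 3 was above the median, and 5 of 8 genes were under 1 RPKM in every LDLIM library. Principal cell markers summed to 7.68 to 73.8 RPKM, against a median of 114 RPKM elsewhere and of 7589 RPKM in IMCD, and intercalated cell markers to 0.0567 to 2.71 RPKM, with 8 of 9 under 1 RPKM. Thin ascending limb markers summed to 188, 86.3, 382 and 31.4 RPKM, against a median of 506 RPKM in tAL.

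Inner medullary collecting duct markers summed to 135, 145, 486 and 8.34 RPKM, against a median of 16.4 RPKM in the other tubule libraries and of 7044 RPKM in IMCD. LDLIM 1 to 3 were above the first of these medians, and 1 of the 6 genes was under 1 RPKM in every LDLIM library. Of the 6, 2 were called higher than in the pool (Slc14a2 and Gpha2) and 1 lower (Aqp4). Gpha2, a glycoprotein hormone subunit gene, held 62.3, 1.76, 60.7 and 0.00575 RPKM, against a median of 0 and a highest of 892 RPKM elsewhere (2.42 ± 0.53; adjusted p = 0.00095). It was also higher than in LDLOM (3.19; adjusted p = 0.00042) and tAL (2.44; adjusted p = 0.043) and lower than in IMCD (-5.50). These differences of Gpha2 were 3.53 for the pool, 4.30 for LDLOM, 3.56 for tAL and -4.39 for IMCD when LDLIM 4 was left out. Its calls against the pool and tAL ended without LDLIM 1 or 3 (adjusted p up to 0.14 and 0.46), and that against tAL also in a second deposited table, made without polyadenylation-site data, with a pseudocount of 0.1, without libraries under 2500 genes and after quantile normalization. The part of collecting duct transcripts in the differences of LDLIM was not tested.

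Markers of cells outside the tubule were also uneven. Endothelial markers summed to 41.9 to 177 RPKM, against a lowest of 0.0112, a median of 63.4 and a highest of 9722 RPKM in the other segments. The junction protein Esam made up 123, 41.1, 136 and 64.97 RPKM, and Vwf was listed at 0 in all 4 libraries. Leukocyte markers summed to 35.4, 9.84, 93.7 and 237 RPKM, against a lowest of 0.119, a median of 245 and a highest of 2613 RPKM elsewhere. Ptprc, Cd68 and Aif1 were listed at 0, and 2 of the 13 genes reached 1 RPKM in every LDLIM library. One of these was Cd14, a bacterial endotoxin receptor of monocytes, at 4.21, 7.24, 3.98 and 31.2 RPKM. It was called higher than in the pool (2.46 ± 0.66; adjusted p = 0.011), and not without LDLIM 4 (1.85; adjusted p = 0.12), after quantile normalization (adjusted p = 0.16) or in the second table (adjusted p = 0.23). Interstitial and smooth muscle markers summed to 0.122 to 30.4 RPKM, against a median of 1.11 and a highest of 1396 RPKM elsewhere, with Col1a1, Col1a2, Lum and Postn listed at 0. Of 10 urothelial and papillary surface genes 8 were listed at 0, and the rest summed to 0.276 to 17.8 RPKM, against a median of 0 and a highest of 62.6 RPKM elsewhere. Psca, a surface protein gene and 1 of the 2 tested, held 3.57, 17.8, 11.7 and 0.276 RPKM and was higher than in the pool (2.48 ± 0.35; adjusted p = 8.4e-08), LDLOM (adjusted p = 1.0e-05) and IMCD (adjusted p = 2.1e-05). Against tAL it was not called (adjusted p = 0.17) except without LDLIM 4 (adjusted p = 0.0036). Its difference from the pool was 3.23 without LDLIM 4, the lowest of the 4. The part of urothelial or papillary surface cells in these values was not tested. Blood markers summed to 0 to 4.59 RPKM, against a median of 0.295 and a highest of 922 RPKM elsewhere. In libraries of whole tubule pieces, fewer cells of a type and less RNA per cell cannot be told apart.

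Against the pool of the other 13 segments, limma called 700 of 11078 genes, which is 6.32% of those tested: 645 were higher (5.82%) and 55 lower (0.496%). The median log2 difference over all genes tested was 0.27. Without LDLIM 4, 865 genes were called, 831 higher and 34 lower. The split depended on the scaling: after quantile normalization 462 of 661 called genes were higher, and with the number of detected genes as a covariate 465 of 579. The spread of the other segments was wide, and 0 of the 700 called genes separated the 4 LDLIM libraries from all others without overlap. Many single calls rest on all 4 libraries. Of the called genes followed under each alternative, 40 of 111 lost the pool call without LDLIM 1, 29 of 110 without LDLIM 2, 31 of 112 without LDLIM 3 and 15 of 113 without LDLIM 4. With LDLIM and the other segments as the only 2 groups of the fit, 48 of 113 lost it.

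The 12 largest positive differences included secreted, signalling and osmolyte genes. Besides Cxcl1 and Aqp1, Spp1, which encodes the secreted phosphoprotein osteopontin, held 23112, 13357, 10284 and 82909 RPKM in LDLIM libraries 1 to 4, against a median of 134 and a highest of 51303 RPKM in the other libraries. LDLIM 4 was the highest of all tubule libraries, and the others overlapped LDLOM, SDL, 3 tAL libraries and 1 S3 library. Its difference was 7.19 ± 1.35 (adjusted p = 7.8e-05), or 6.56 without LDLIM 4. Socs3, a feedback inhibitor of cytokine signalling, held 418, 273, 396 and 471 RPKM, against a median of 0.318 and a highest of 675 RPKM (6.63 ± 1.09; adjusted p = 4.6e-06). All 4 LDLIM values lay within 273 to 471 RPKM, and 3 other libraries reached them. Fhl2, a LIM-domain adaptor protein, held 300.4, 247, 323 and 227 RPKM, against a median of 0.465 RPKM (6.22 ± 1.04; adjusted p = 6.8e-06).

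Chn2, a GTPase-activating protein for Rac, held 110.0, 229.9, 144 and 239 RPKM, against a median of 0.0732 and a highest of 333 RPKM (6.10 ± 0.93; adjusted p = 7.9e-07). Its mean in the second table was lower, at 57.7 RPKM against 181 ± 63.7 RPKM here. Bst1, a cell-surface enzyme of the ADP-ribosyl cyclase family, held 162, 204, 157 and 397 RPKM, and Bgn, the proteoglycan biglycan, 219.6, 238, 115 and 814 RPKM. Both were highest in LDLIM 4, and 11 and 12 other libraries reached their lowest LDLIM value. Their differences were 6.04 ± 0.90 for Bst1 and 6.02 ± 1.02 for Bgn (adjusted p = 3.9e-07 and 9.2e-06). Akap12, a scaffold that anchors protein kinase A, held 264, 259.8, 112 and 182 RPKM, against a median of 0.112 RPKM (5.82 ± 0.94; adjusted p = 3.1e-06). The other genes among the 12, Atf3, Fosb and Akr1b1, are described with their groups below, and each was far lower in LDLIM 4 than in LDLIM 1 to 3.

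Of the 8 largest negative differences 7 are given, all of genes at low levels in LDLIM. Csrp2, a LIM-domain protein, held 3.03, 0.723, 0.432 and 0.126 RPKM, against a median of 121 RPKM (-5.00 ± 0.87; adjusted p = 1.7e-05). The difference was -4.30 ± 1.04 for Umod, the glycoprotein of the thick ascending limb, which held 0, 0.312, 0 and 0.00760 RPKM (adjusted p = 0.0033). It was -4.25 ± 0.91 for the antimicrobial peptide Defb1 (0, 0.0429, 0.0410 and 0.522 RPKM) and -4.04 ± 0.95 for the thyroid hormone binding protein Crym (0, 0.0327, 0.0313 and 0 RPKM). Gstm1, a glutathione transferase, held 0.0857, 0, 0.138 and 0.0501 RPKM, against a median of 25.5 RPKM (-4.16 ± 1.23; adjusted p = 0.023). Sepp1, the selenium carrier, and Ccdc152 differed by -4.09 ± 1.03 and -4.13 ± 1.10. These neighbours overlap at their ends in the RefSeq annotation and no source used here states strand-aware counting, so their reads may not be separable. Without LDLIM 4 the calls of Gstm1, Ccdc152 and Sepp1 were lost, with adjusted p = 0.053, 0.056 and 0.056, and the difference of Sepp1 was -3.42. That of Gstm1 was also lost without any other LDLIM library (adjusted p up to 0.087), and that of Ccdc152 without LDLIM 1 and in the second table (adjusted p = 0.053 and 0.2). LDLIM values overlapped the other libraries for all 7 genes.

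**Figure D3:**
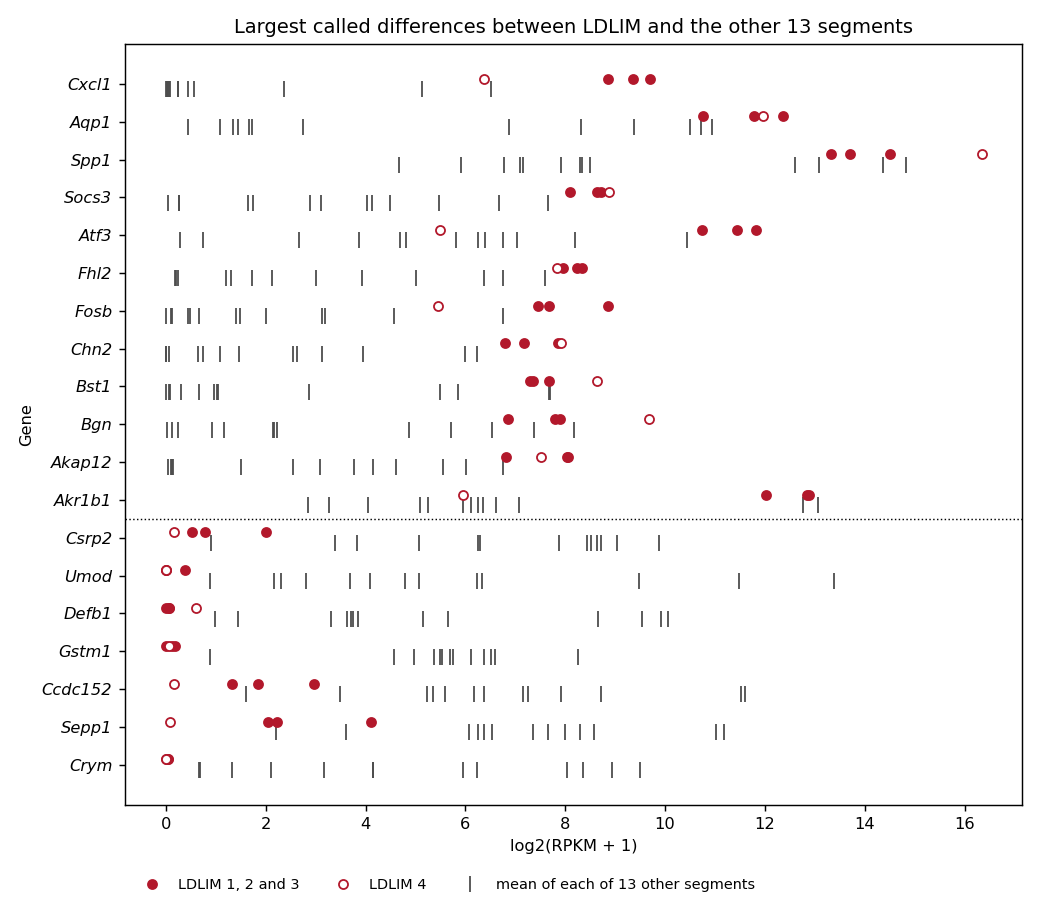
log2(RPKM + 1) of the 12 genes with the largest positive (top) and 7 of the 8 with the largest negative (bottom) called differences between LDLIM and the other 13 segments, with LDLIM libraries as circles and the mean RPKM of each other segment as ticks. The open circle, LDLIM 4, lies to the left of the filled ones for Cxcl1, Atf3, Fosb and Akr1b1 and to the right for Spp1, Bst1 and Bgn.

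Among the 10 genes with the highest mean in LDLIM were Spp1, Myl6l, Mrpl1, Cryab, Akr1b1, Aqp1, S100a6, H3f3b and Impad1. For 3 of these the tables disagreed: Myl6l (21888 ± 3781 RPKM), Mrpl1 (14004 ± 2944 RPKM) and Impad1 (2657 ± 158 RPKM; SD, n = 4) averaged 44.9, 1.24 and 0.00283 RPKM in the table without polyadenylation-site data. Their levels depend on how polyadenylation-site data were used, and they were not called. S100a6, a calcium-binding protein, held 2969, 4746, 5349 and 951 RPKM (5.11 ± 1.15 above the pool; adjusted p = 0.0014), and H3f3b, which encodes histone variant H3.3, 3193, 3459.8, 3695 and 991 RPKM (2.69 ± 0.60; adjusted p = 0.0013). Both were lowest in LDLIM 4. Neither was called against LDLOM, tAL or IMCD, and S100a6 held 3157 to 16557 RPKM in IMCD.

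Among water and urea channels, 2 of 10 tested genes were higher in LDLIM than in the pool and 3 were lower, with a median difference of -0.80, against 0.27 over all genes. Over all genes tested, 5.82% were higher and 0.496% lower, and the list counts against the pool below are to be read beside these shares. Aqp1 and Slc14a2, the urea transporter gene of the collecting duct and thin descending limbs, were higher. Slc14a2 held 52.1, 61.6, 21.6 and 0.117 RPKM, against a median of 0 and a highest of 1003 RPKM elsewhere (2.92 ± 0.72; adjusted p = 0.004). LDLIM 1 to 3 lay above the LDLOM median of 2.62 RPKM and below the IMCD range of 129.5 to 1003 RPKM, while LDLIM 4 held almost none. The difference was 4.23 without LDLIM 4, and the call ended without LDLIM 1 or 2 (adjusted p = 0.089 and 0.099). Slc14a1, the urea transporter of red cells and vasa recta, was under 0.2 RPKM in every LDLIM library and was uneven in SDL, at 0, 0.110 and 935 RPKM (lowest, median and highest). The vasopressin-regulated Aqp2 held 4.38, 4.46, 2.56 and 9.00 RPKM (-3.44 ± 1.08; adjusted p = 0.034), and Aqp4 and Aqp6 were also lower. Without LDLIM 4, 1 of these 3 calls remained, that of Aqp2 (adjusted p = 0.047, against 0.1 for Aqp4). It ended without LDLIM 1, 2 or 3 (adjusted p up to 0.16) and with a pseudocount of 0.1 (adjusted p = 0.17). Aqp3, a basolateral water channel, had 0.553, 0.254, 1.43 and 0 RPKM and was not called (-2.35; adjusted p = 0.074).

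In the chloride and sodium path, 1 of 16 tested genes was higher and 1 lower (median -0.19), against 5.82% and 0.496% of all genes. Slc4a11, a borate transporter family member, held 187, 72.9, 144 and 31.4 RPKM, against a median of 6.13 RPKM (3.22 ± 0.82; adjusted p = 0.0059), and was not called without LDLIM 1 or 3 (adjusted p = 0.072 and 0.056). Bsnd, which encodes the accessory subunit barttin, held 0.352, 9.06, 212 and 0.00891 RPKM and was not called (0.29; adjusted p = 0.9). LDLIM 3 had its highest value, which lay within the tAL range of 0.482 to 1227 RPKM. Of 18 claudins, which set the tightness and selectivity of the junction, 1 was higher and 0 were lower by limma, with 1 lower at an unadjusted p under 0.05. In both lists the share called higher was close to that over all genes. Cldn4, a claudin of tight epithelia, held 354, 969.5, 1024 and 57.9 RPKM, against a median of 31.6 RPKM (4.47 ± 1.20; adjusted p = 0.01). Its difference was 5.36 without LDLIM 4, and the call ended without LDLIM 2 or 3 (adjusted p = 0.083 and 0.096). Cldn23 was uneven, with 0, 0.0220, 0.864 and 198 RPKM.

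Osmolyte and tonicity genes stood high. Of 13 tested genes 6 were higher and 0 were lower by limma, with 0 lower at an unadjusted p under 0.05, and the median difference was 2.50. Nfat5 held 83.2, 83.3, 77.9 and 45.1 RPKM, against a median of 3.04 and a highest of 185 RPKM elsewhere (3.84 ± 0.76; adjusted p = 0.00017). Akr1b1, the aldose reductase that makes sorbitol, held 4152, 7369, 7507 and 60.8 RPKM, against a median of 41.5 RPKM (5.74 ± 1.28; adjusted p = 0.0012). In LDLIM 1 to 3 it was one of the most abundant transcripts, and in LDLIM 4 it was near the median of the other segments. Without LDLIM 4 its difference was 7.40. The betaine transporter Slc6a12 held 37.6, 18.9, 59.1 and 59.8 RPKM (3.99 ± 0.86; adjusted p = 0.00071) and was present in all 4 libraries.

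The chaperones on the osmolyte list were also higher. Hspa2 held 374, 264, 304 and 146 RPKM (5.42 ± 1.14), Cryab, the small heat shock protein alpha-B crystallin, 4089, 6358, 10250 and 1118 RPKM (4.33 ± 0.86, and 4.97 without LDLIM 4), and Clu, the secreted chaperone clusterin, 1004, 1404, 557 and 527 RPKM (5.32 ± 1.16; adjusted p = 0.00083). Clusterin was high in every LDLIM library, and 8 other libraries reached its lowest LDLIM value. The inositol transporter Slc5a3 (17.1, 59.9, 3.86 and 0 RPKM) and the taurine transporter Slc6a6 (9.26, 0.0942, 3.81 and 19.0 RPKM) were not called, with differences of 1.26 and 1.34.

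Of 22 tested chemokines and cytokines, 5 were higher and 0 were lower, with 0 lower at an unadjusted p under 0.05 by limma (median difference 1.10). Beside Cxcl1 and Spp1, these were the cytokine genes Il1b (43.4, 0, 17.5 and 0 RPKM), Lif (9.97, 0.0313, 8.04 and 0 RPKM) and Tnf (0.923, 7.34, 0.960 and 0 RPKM). Their levels were low and uneven: Il1b and Lif reached 1 RPKM in LDLIM 1 and 3 alone, and Tnf in LDLIM 2 alone. Il1b differed by 2.13 ± 0.50 (adjusted p = 0.0021), or by 2.94 without LDLIM 4, and lost the call without LDLIM 1 or 3 (adjusted p = 0.32 and 0.13). Lif also lost its call without LDLIM 1 or 3, with detected genes as a covariate and without libraries under 2500 genes. Quantile normalization ended the calls of Lif and Tnf. Of 18 genes that regulate NF-kappaB, the inflammatory transcription factor, or are its known targets, 5 were higher and 0 lower, with 1 lower at an unadjusted p under 0.05 (median 1.35). Nfkbiz, a nuclear NF-kappaB cofactor, held 54.1, 182, 195 and 0.00295 RPKM (4.17 ± 0.81; adjusted p = 0.00014), and Birc3, an inhibitor of apoptosis, 57.5, 36.8, 7.18 and 0 RPKM (3.09 ± 0.59; adjusted p = 9.2e-05). Both were at or near 0 in LDLIM 4, and without it they differed by 5.91 and 4.26. Tnfaip2, Bcl3 and Lcn2, the siderophore-binding protein lipocalin, were the others. Nfkbia, the feedback inhibitor of the pathway, held 505, 427, 497 and 0.0215 RPKM: high in LDLIM 1 to 3 and near 0 in LDLIM 4. It was not called with all 4 libraries (3.33 ± 1.14; adjusted p = 0.058) and was called without LDLIM 4 (5.55; adjusted p = 0.0011). Without LDLIM 4, 7 genes of each list were higher. The leukocyte markers given above summed to 9.84 to 237 RPKM in LDLIM, with Cd14 called higher and Ptprc, Cd68 and Aif1 listed at 0, and their part in these differences was not tested.

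The promoters of the called genes of these lists were searched for an NF-kappaB motif, since Cxcl1 is a known target of that factor. RefSeq promoters (build GRCr8, not the build rn5 of the files, 250 bases before to 50 after the start) were at hand for 8 of 10 called genes. The NF-kappaB motif, a run of 10 bases with 3 free positions searched on both strands, occurred in 3 of them, those of Cxcl1, Nfkbiz and Bcl3, and in 5.00% of all 33469 promoters. The TonE core TGGAAA, the letters of the Nfat5 site, occurred in 3 of 8 (22.7% of all promoters), and the AP-1 letters TGANTCA, the CRE letters TGACGTCA and the STAT letters TTCNNNGAA in 0 of 8 (7.33%, 1.83% and 8.87% of all promoters). The heat shock element was in 0 of 8 and in 0.798% of all promoters. In Cxcl1 (chr14:17479272-17479571, minus strand) the NF-kappaB letters began 102 and 84 bases before the start, in Nfkbiz (chr11:58251471-58251770, plus strand) 13 bases before it, and in Bcl3 (chr1:88613506-88613805, minus strand) 38 bases before it. The NF-kappaB list was made of regulators and known targets of that factor, so all promoters are not a like background for these 8. A match of letters is a description and does not show that the factor binds. The 3 promoters are shown to place the motif, in capitals; Cxcl1 and Nfkbiz share the same 10 letters:
Cxcl1: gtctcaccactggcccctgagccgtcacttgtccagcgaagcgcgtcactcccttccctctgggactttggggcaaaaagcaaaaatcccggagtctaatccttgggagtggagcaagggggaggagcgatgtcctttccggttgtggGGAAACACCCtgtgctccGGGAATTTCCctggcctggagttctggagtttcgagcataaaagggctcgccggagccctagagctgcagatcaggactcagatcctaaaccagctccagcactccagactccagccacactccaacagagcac
Nfkbiz: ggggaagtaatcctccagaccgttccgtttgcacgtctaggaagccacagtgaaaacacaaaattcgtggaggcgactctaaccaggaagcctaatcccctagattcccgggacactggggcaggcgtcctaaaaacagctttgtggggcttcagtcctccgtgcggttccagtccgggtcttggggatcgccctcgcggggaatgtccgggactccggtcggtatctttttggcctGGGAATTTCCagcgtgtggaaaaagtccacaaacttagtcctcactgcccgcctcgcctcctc
Bcl3: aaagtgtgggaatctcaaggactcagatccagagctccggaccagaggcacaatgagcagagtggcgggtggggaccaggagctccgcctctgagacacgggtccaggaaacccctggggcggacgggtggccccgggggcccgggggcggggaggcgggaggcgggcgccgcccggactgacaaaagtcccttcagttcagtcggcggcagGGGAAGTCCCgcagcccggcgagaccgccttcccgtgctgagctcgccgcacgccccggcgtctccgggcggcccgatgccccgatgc

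Immediate early genes, the transcription factors and phosphatases that cells switch on within minutes of a stimulus, had the most calls of the lists. Of 23 tested, 14 were higher and 0 lower, with 0 lower at an unadjusted p under 0.05 by limma, and the median difference was 3.11. Atf3, a stress-induced factor, held 3618, 2795, 1705 and 43.9 RPKM, against a median of 3.62 and a highest of 5568 RPKM elsewhere (6.38 ± 1.36; adjusted p = 0.00061). Fosb, a subunit of the AP-1 factor, held 174, 202, 464 and 42.6 RPKM, against a median of 0.0204 RPKM (6.20 ± 0.84; adjusted p = 1.7e-08). For both, LDLIM 4 was the lowest LDLIM library, and 37 other libraries for Atf3 and 5 for Fosb reached its level. Fos held 1264, 1173, 2948 and 336 RPKM (4.22 ± 1.26), Jun 198, 96.2, 84.1 and 49.9 RPKM (3.86 ± 1.01), and Egr1, a zinc finger factor, 718, 851, 884 and 82.6 RPKM (4.26 ± 0.94; adjusted p = 0.0011). The phosphatase Dusp1 held 104.8, 113, 409 and 86.0 RPKM (4.29 ± 1.00). Myc (23.3, 49.6, 18.0 and 0 RPKM; 3.20 ± 0.53) and the nuclear receptor Nr4a1 (68.9, 40.02, 13.02 and 0 RPKM; 3.13 ± 0.61) were in the same group, listed at or near 0 in LDLIM 4. Without LDLIM 4, 16 of the 23 were higher, and the difference was 7.84 for Atf3, 6.84 for Fosb, 5.08 for Egr1, 4.41 for Myc and 4.41 for Nr4a1. The call of Fos ended without LDLIM 1, 2 or 3 (adjusted p up to 0.16) and that of Jun without LDLIM 1 (adjusted p = 0.077).

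Such genes are known to be induced when tissue is handled, and digestion times differed: 90 minutes for inner medulla, 50 minutes for outer medulla and 25 minutes for cortex. Against IMCD, the other segment that the labels place in the inner medulla, 3 of 23 immediate early genes (Fosb, Myc and Nr4a1) were higher. The median difference of the 23 was 0.70, against -0.01 over all genes, of which 1.58% were higher. All 3 calls ended with a pseudocount of 0.1. That of Fosb also ended without LDLIM 3, and those of Myc and Nr4a1 without LDLIM 1, 2 or 3. Against LDLOM, digested for 50 minutes, 6 of 23 were higher, against 2.66% of all genes. The median difference was 2.92, against 0.59 over all genes. Of these calls, that of Dusp1 ended without LDLIM 1, 2 or 3 and in the second table, and that of Fosl1 without LDLIM 1 or 3. Digestion time and position along the limb cannot be told apart between LDLIM and LDLOM.

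Of 16 heat shock genes tested, 5 were higher and 0 lower, with 0 lower at an unadjusted p under 0.05 by limma (median 1.86). Hspa1a and Hspa1b, near-identical genes between which reads may be split uncertainly, held 1047, 813, 148 and 47.9 and 358, 276, 50.9 and 18.6 RPKM (5.09 ± 0.99 and 4.36 ± 0.79). Hsp90aa1 held 751, 580.2, 92.1 and 63.7 RPKM (4.20 ± 0.97), and the co-chaperone Dnajb1 1532, 1495, 192 and 85.9 RPKM (4.25 ± 1.14). LDLIM 1 and 2 were higher than LDLIM 3 and 4 for all 4 of these genes. Without LDLIM 4 the differences were 5.93, 5.15, 4.80 and 5.03 in the same order, and the call of Dnajb1 ended without LDLIM 1 or 2 (adjusted p = 0.11 and 0.1). Against IMCD, 0 of 16 passed by limma, with 1 higher at an unadjusted p under 0.05.

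**Figure D4:**
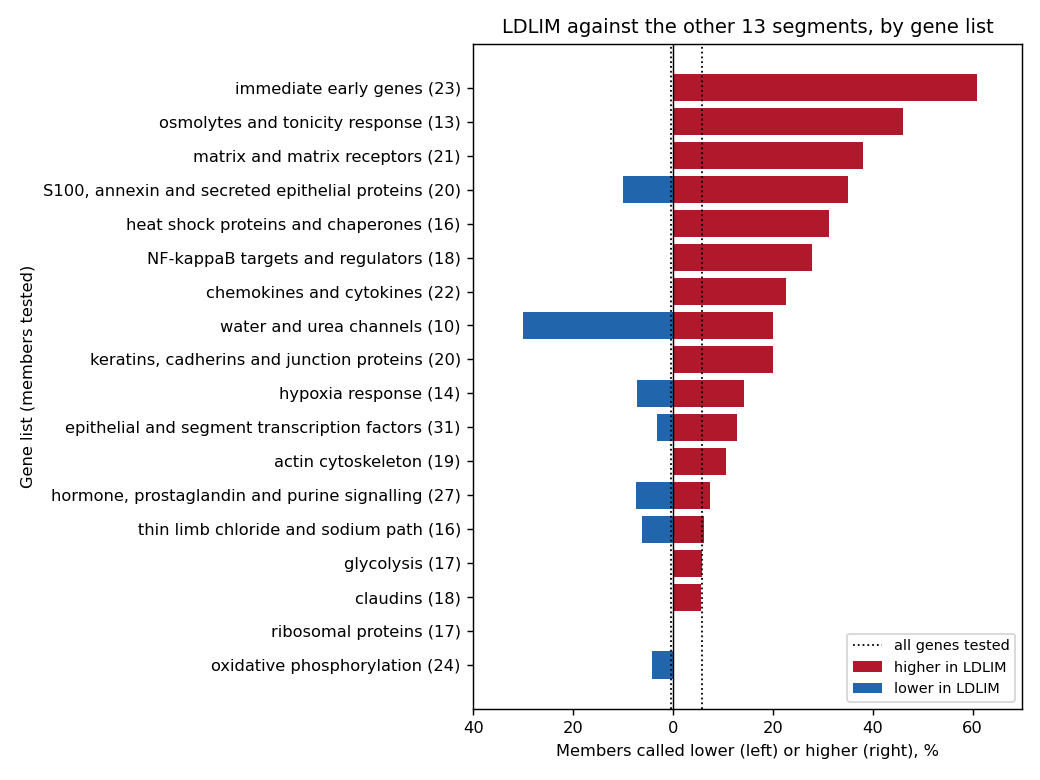
Percentage of tested members of each of 18 gene lists called higher (right) or lower (left) in LDLIM than in the other 13 segments, with the number tested in brackets and dotted lines at the percentages over all genes tested, 5.82% higher and 0.496% lower. Immediate early genes (14 of 23 higher) and osmolyte genes (6 of 13) have the longest bars, and oxidative phosphorylation has 0 higher and 1 lower of 24.

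Matrix and matrix receptor genes had 8 of 21 tested higher and 0 lower, with 0 lower at an unadjusted p under 0.05 by limma (median 1.57). Beside Egfl6, Timp1, an inhibitor of metalloproteinases, held 229, 245, 51.3 and 0 RPKM (4.12 ± 1.03), and the basement membrane collagens Col18a1 235, 334, 255 and 414 RPKM (3.35 ± 0.93) and Col4a1 43.0, 35.9, 28.4 and 109 RPKM (3.06 ± 0.89). Itgb4, an integrin of hemidesmosomes, held 5.51, 10.3, 11.8 and 11.8 RPKM (2.60 ± 0.61; adjusted p = 0.0025). Cd24, a surface glycoprotein, held 2107, 2556, 2366 and 2051 RPKM, against a median of 476 RPKM (3.18 ± 0.75), and its 4 values lay close together. LDLIM 4 was the highest library for Col18a1 and Col4a1 and the lowest for Cd24, and it listed Timp1 at 0. Without LDLIM 4 the difference of Timp1 was 5.91 and the call of Col4a1 was lost (adjusted p = 0.099). Calls also ended for Timp1 without LDLIM 1 or 2 (adjusted p up to 0.1), for Col18a1 without LDLIM 2 or 3 (up to 0.059) and for Col4a1 without any one library (up to 0.099) or with a pseudocount of 0.1.

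Of 20 keratin, cadherin and junction genes, 4 were higher and 0 lower, with 0 lower at an unadjusted p under 0.05 by limma (median 1.48). Vim, the intermediate filament protein vimentin, held 466, 294, 120 and 577 RPKM, against a median of 4.40 and a highest of 822 RPKM (5.37 ± 1.07; adjusted p = 0.00021). Krt18, a simple epithelial keratin, held 237, 216, 162 and 69.8 RPKM (3.47 ± 1.04), and the cadherins Cdh6 and Cdh2 23.2, 16.0, 10.2 and 0 and 14.2, 0.00780, 7.30 and 0 RPKM (2.57 ± 0.59 and 1.42 ± 0.42). All 4 LDLIM libraries held both vimentin and keratin 18 transcripts. Cdh6 differed by 3.58 when LDLIM 4 was left out. Calls ended for Krt18 without LDLIM 1, 2 or 3 (adjusted p up to 0.12) or with detected genes as a covariate (0.051), for Cdh6 without LDLIM 1 (0.066), and for Cdh2 without LDLIM 1 or 3 (up to 0.57), with a pseudocount of 0.1 or after quantile normalization. In the actin list 2 of 19 were higher, against 5.82% of all genes. These were the actin-binding Enc1 (65.7, 42.0, 24.8 and 29.5 RPKM; 4.67 ± 0.63) and Lmo7.

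S100, annexin and secreted epithelial proteins had 7 of 20 higher and 2 lower (median 2.21). Annexins bind membranes in the presence of calcium: Anxa5 held 842, 1015, 845 and 2220.3 RPKM (4.63 ± 1.08), Anxa2 389, 471, 347 and 287 RPKM (3.38 ± 0.96) and Anxa3 103, 15.4, 55.7 and 31.3 RPKM (4.25 ± 0.85; adjusted p = 0.00023). S100a11 held 961, 938, 1450.5 and 760.0 RPKM (2.48 ± 0.76). Anxa2 and S100a11 lost the call without LDLIM 1, 2 or 3 (adjusted p up to 0.077 and 0.15). The 2 genes lower than in the pool were Umod and Defb1. Against LDLOM 0 of the 20 were called (median 0.47), with 4 higher at an unadjusted p under 0.05. Against tAL 0 were called (median 0.77), with 1 higher and 1 lower at that level. Against IMCD 2 were higher and 4 lower (median -0.54), against 1.58% and 1.73% of all genes.

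Among 31 segment transcription factors, 4 were higher and 1 lower (median -0.25), against 5.82% and 0.496% of all genes. The ETS factors Ehf and Elf3, found in simple epithelia, held 156, 204, 120.4 and 121 and 434, 429, 259 and 282 RPKM (4.59 ± 0.88 and 3.83 ± 1.18; adjusted p = 0.00011 and 0.029). Pax8, a factor of the whole nephron, held 283, 229.6, 169.6 and 524 RPKM (3.66 ± 1.04), and Irx3, which patterns nephron segments, 13.5, 2.62, 11.2 and 27.1 RPKM (2.42 ± 0.68). Gata3, a collecting duct factor, stayed under 0.09 RPKM in every LDLIM library (-2.23 ± 0.64). Without LDLIM 4, Elf3, Pax8 and Irx3 lost the call (adjusted p = 0.056, 0.067 and 0.1). These 3 and Gata3 also lost it without LDLIM 1, Elf3, Pax8 and Gata3 without LDLIM 2, and Elf3, Irx3 and Gata3 without LDLIM 3, with adjusted p up to 0.12 for Elf3, 0.073 for Pax8, 0.1 for Irx3 and 0.08 for Gata3. A pseudocount of 0.1 also ended the calls of Elf3 and Pax8, detected genes as a covariate that of Elf3, quantile normalization that of Irx3, and the second table that of Gata3.

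Of 27 hormone, prostaglandin and purine signalling genes, 2 were higher and 2 lower (median -0.33), against 5.82% and 0.496% of all genes. Adora1, the adenosine A1 receptor, held 35.3, 25.5, 51.8 and 24.6 RPKM, against a median of 0.0223 RPKM (4.14 ± 0.78; adjusted p = 8.2e-05). The prostaglandin receptor Ptger2 was detected in LDLIM 1 and 3, at 8.69, 0, 3.59 and 0 RPKM (1.23 ± 0.41). Pth1r, the parathyroid hormone receptor of proximal and distal segments, was listed at or near 0 (-3.18 ± 0.86), as was the prostaglandin E synthase Ptges (-2.83 ± 0.84). Ptges lost the call without any one LDLIM library (adjusted p = 0.055 without LDLIM 4, and up to 0.087), and Ptger2 and Pth1r lost it without LDLIM 1 or 3 (up to 0.66 and 0.051). Ptger2 was also not called when the low-value filter was dropped, when detected genes were a covariate, after quantile normalization or without libraries under 2500 genes.

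Of 24 oxidative phosphorylation genes, 0 were higher by limma, with 0 higher at an unadjusted p under 0.05, and 1 was lower, and the median difference was -0.89. For this list and those that follow here, the shares over all genes were 5.82% higher and 0.496% lower. Atp5g3, a subunit of the ATP synthase ring, held 116, 50.6, 245 and 953 RPKM, against a median of 883 RPKM (-1.78 ± 0.59; adjusted p = 0.046). LDLIM 1 to 3 were low, and LDLIM 4 was above the median of the other libraries; the difference was -2.55 without LDLIM 4, and the call ended without LDLIM 1, 2 or 3 (adjusted p up to 0.43) or with a pseudocount of 0.1. Of 17 glycolysis genes 1 was higher (Pfkl, 2.74 ± 0.90; adjusted p = 0.047, 0.16 without LDLIM 4 and up to 0.18 without one of the others), and of 17 ribosomal protein genes 0 passed in either direction, with 0 at an unadjusted p under 0.05. In the hypoxia list 2 of 14 were higher and 1 lower: Hif1a, the oxygen-sensing factor, held 109, 383, 142 and 107 RPKM (4.52 ± 1.13), Hmox1, heme oxygenase, 219, 192, 24.1 and 0.0285 RPKM (3.97 ± 0.81), and Car12, a carbonic anhydrase, was lower (-3.43 ± 0.98). The call of Car12 ended without LDLIM 4 (adjusted p = 0.054), without LDLIM 1 or 2 (up to 0.083) and in the second table (0.8), and that of Hif1a without LDLIM 2 (0.052). Hmox1 differed by 5.63 when LDLIM 4 was left out.

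A gene was called selective for LDLIM where it exceeded each of the 13 other segments by 1 or more on the log2 scale with an adjusted p under 0.05 for the weakest of the 13 comparisons. By limma 11 genes met this, 0.0993% of those tested. Cxcl1 exceeded tAL, the nearest segment, by 5.38 (adjusted p = 3.3e-05), or by 6.11 without LDLIM 4. Most others were of low abundance and uneven. Enc1 held 65.7, 42.0, 24.8 and 29.5 RPKM and exceeded OMCD, the nearest, by 3.48 (adjusted p = 0.019). Pla2g7, which inactivates platelet-activating factor, held 52.4, 73.4, 76.8 and 0 RPKM, against 0, 0 and 43.7 RPKM (lowest, median and highest) in IMCD (3.26; adjusted p = 0.0017). Cd40, a receptor of the tumour necrosis factor family, held 13.3, 0.367, 35.7 and 109.7 RPKM and exceeded LDLOM by 2.92 (adjusted p = 0.0024). Without LDLIM 4 its smallest difference was 2.01 and it was no longer selective (adjusted p = 0.2), as without LDLIM 3 (0.066) and without libraries under 2500 genes (0.23). Enc1 and Pla2g7 lost the call without LDLIM 1 or 2 and with a pseudocount of 0.1, Pla2g7 also without LDLIM 3, and Enc1 with detected genes as a covariate or without libraries under 2500 genes (adjusted p up to 0.17 for Enc1 and 0.095 for Pla2g7 when 1 library was left out). The smallest difference of Pla2g7 was 4.78 when LDLIM 4 was left out. Each of these genes overlapped at least one library of another segment.

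Col4a3, a collagen IV chain, was present in all 4 libraries, with 10.2, 5.07, 8.50 and 7.57 RPKM, and 2 other libraries reached its lowest LDLIM value. It exceeded IMCD by 2.06 (adjusted p = 0.0042). Myrip, which links Rab proteins to myosin, held 2.85, 24.8, 2.18 and 7.22 RPKM (2.23 above IMCD). Spsb1, a SOCS-box adaptor of ubiquitin ligases, held 56.4, 72.6, 14.1 and 0 RPKM (3.14 above IMCD). Dpysl3, a cytoskeletal regulator, held 0.00659, 5.44, 2.98 and 32.4 RPKM, and without LDLIM 4 its excess over the pool was 1.47 instead of 2.34. Spata20 (18.4, 17.0, 2.81 and 0 RPKM), the Wnt antagonist Nkd1 (2.49, 3.78, 6.75 and 0 RPKM) and the Argonaute protein Ago3 (6.30, 3.29, 0.0634 and 0 RPKM) completed the list, and all 3 were listed at or near 0 in LDLIM 4. The smallest difference without LDLIM 4 was 4.47 for Spsb1, 3.09 for Spata20 and 1.72 for Nkd1. Without LDLIM 1, Col4a3, Spsb1 and Nkd1 were no longer selective, and without LDLIM 2, Spsb1 and Nkd1 were not. Nkd1 also lost the call without LDLIM 3. Of the 11, Cxcl1 and Myrip kept it under every alternative that could test them. Spata20 passed the low-value filter only with LDLIM 1, 2 and 3 all included, so leaving out any of them could not test it. Its call held under the other alternatives that could test it. Ago3 lost the call with a pseudocount of 0.1, after quantile normalization, in the second table and without libraries under 2500 genes. Without LDLIM 4 the number of selective genes was 43, and without the tAL group among the segments compared, an alternative chosen after the data were seen, it was 25. With a pseudocount of 0.1 it was 5, and without the filter on low values 27.

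LDLIM was then compared with LDLOM, the outer medullary stretch of the same limb. Limma called 300 genes (2.71%), 295 higher (2.66%) and 5 lower (0.0451%), and the median over all genes tested was 0.59. The count moved with the processing: 137 genes were called after quantile normalization (112 higher), 97 with detected genes as a covariate (90 higher), 128 without libraries under 2500 genes (116 higher), 6 with these 2 groups alone, and 590 without LDLIM 4 (582 higher). In 48 of the 295 genes called higher the groups did not overlap. The 6 largest of these were Cxcl1, Fosb, Ccnl1, Klf10, Zbtb38 and Socs3. Overlap was counted among called genes alone, so no share over all genes tested stands beside such counts. Cxcl1 was listed at 0 in 6 of 9 LDLOM libraries and reached 1.45 RPKM in one.

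Ccnl1, a cyclin that acts in RNA splicing, held 355, 168, 105.5 and 58.9 RPKM in LDLIM, against 0, 0 and 21.3 RPKM (lowest, median and highest) in LDLOM (6.28 ± 1.20; adjusted p = 0.00029). Klf10, a zinc finger factor, held 134, 60.9, 146 and 158 RPKM, against 0, 0.0672 and 26.9 RPKM (5.86 ± 1.19; adjusted p = 0.00067). Zbtb38, a zinc finger protein that binds methylated DNA, held 54.5, 66.5, 26.9 and 181 RPKM, against 0, 0 and 8.68 RPKM (5.62 ± 0.88; adjusted p = 2.9e-06). In all 3 the groups did not overlap. The mean of Zbtb38 in the second table was 4.33 RPKM, against 82.2 ± 67.9 RPKM here, and its call against LDLOM ended there (1.27; adjusted p = 0.12). Of the called lower genes, 0 were without overlap.

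Several genes high in LDLIM were not called against LDLOM. Spp1 differed by -0.10 ± 1.59 (adjusted p = 1.00), Nfat5 by 0.27 ± 0.89 (adjusted p = 1.00) and Bst1 by 1.16 ± 1.06, and a missed threshold does not show equal levels. The osmolyte list had 2 of 13 genes higher, Akr1b1 and Slc6a12, with a median difference of 1.69. Akr1b1 held 0.0155, 4.28 and 167 RPKM (lowest, median and highest) in LDLOM, and LDLIM 4 lay inside that range. Slc6a12 was 3.54 ± 1.01 higher (adjusted p = 0.033; 0.058 without LDLIM 4), and the call also ended without LDLIM 1 or 3, when detected genes were a covariate, when libraries under 2500 genes were dropped and after quantile normalization. Of 21 matrix genes 4 were higher, of 18 NF-kappaB genes 3 and of 20 junction genes 0 by limma, with 6 higher at an unadjusted p under 0.05 and 3 called without LDLIM 4.

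Against tAL, across the bend of the loop, limma called 84 genes (0.758%), 71 higher (0.641%) and 13 lower (0.117%), with a median over all genes of 0.17. Without LDLIM 4 it called 188 genes, 178 higher and 10 lower, and with these 2 groups alone 2. The split moved with the scaling: 45 were higher and 30 lower after quantile normalization, 59 and 35 with detected genes as a covariate, and 68 and 25 without libraries under 2500 genes. In 16 of the 71 higher genes and 1 of the 13 lower genes the groups did not overlap, again without a share over all genes. The 6 largest higher ones were Egfl6, Ehf, Enc1, Fam76a, Pspc1 and Ctsk. Ehf held 156, 204, 120.4 and 121 RPKM in LDLIM, against 0.0145, 1.39 and 66.6 RPKM (lowest, median and highest) in tAL (4.49 ± 1.08; adjusted p = 0.016). Ctsk, the collagen-degrading protease cathepsin K, held 9.89, 42.6, 33.6 and 29.0 RPKM, against 0, 0.0286 and 4.33 RPKM (4.02 ± 0.90; adjusted p = 0.0065). Pspc1, a paraspeckle protein, held 16.3, 40.5, 7.18 and 54.1 RPKM, against 0, 0 and 6.02 RPKM (4.14 ± 0.81; adjusted p = 0.00086). LDLIM lay above tAL in each. Ehf was not called when the pseudocount was 0.1 or without LDLIM 1 or 2 (adjusted p = 0.053 and 0.062), nor Ctsk after quantile normalization (0.054).

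Fam76a, for which no role is given here, held 19.6, 62.0, 19.4 and 90.5 RPKM, against 0, 0.0362 and 12.7 RPKM in tAL (4.26 ± 1.06; adjusted p = 0.02, and 0.066 without LDLIM 4 and 0.085 without LDLIM 2). Adora1 was higher by 3.55 ± 0.96 (adjusted p = 0.047), although tAL 7 held 103 RPKM, and lost the call without LDLIM 1, 2 or 3 (up to 0.16) and under 6 other settings. The 1 lower gene without overlap was Fscn1, an actin-bundling protein listed at 0 in every LDLIM library, against 0.0278, 1.86 and 17.6 RPKM in tAL. Of 23 immediate early genes 1 was called higher (Fosl2), with 6 higher and 2 lower at an unadjusted p under 0.05, 4 called without LDLIM 4 and a median difference of 1.22, against 0.17 over all genes. Fosl2 lost the call without LDLIM 2 (adjusted p = 0.057) and after quantile normalization (0.076). Of 16 heat shock genes 0 were called by limma, with 2 higher at an unadjusted p under 0.05 and a median of 1.56. Of 13 osmolyte genes 0 were called, with 0 at an unadjusted p under 0.05 and a median of 0.55. Akr1b1 held 4.67, 7905 and 15614 RPKM in tAL and Clu 295, 638 and 1466 RPKM, so both ranges covered LDLIM. The summed endothelial markers had a median of 686 RPKM in tAL, above the LDLIM range of 41.9 to 177 RPKM, and their part in these differences was not tested.

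**Figure D5:**
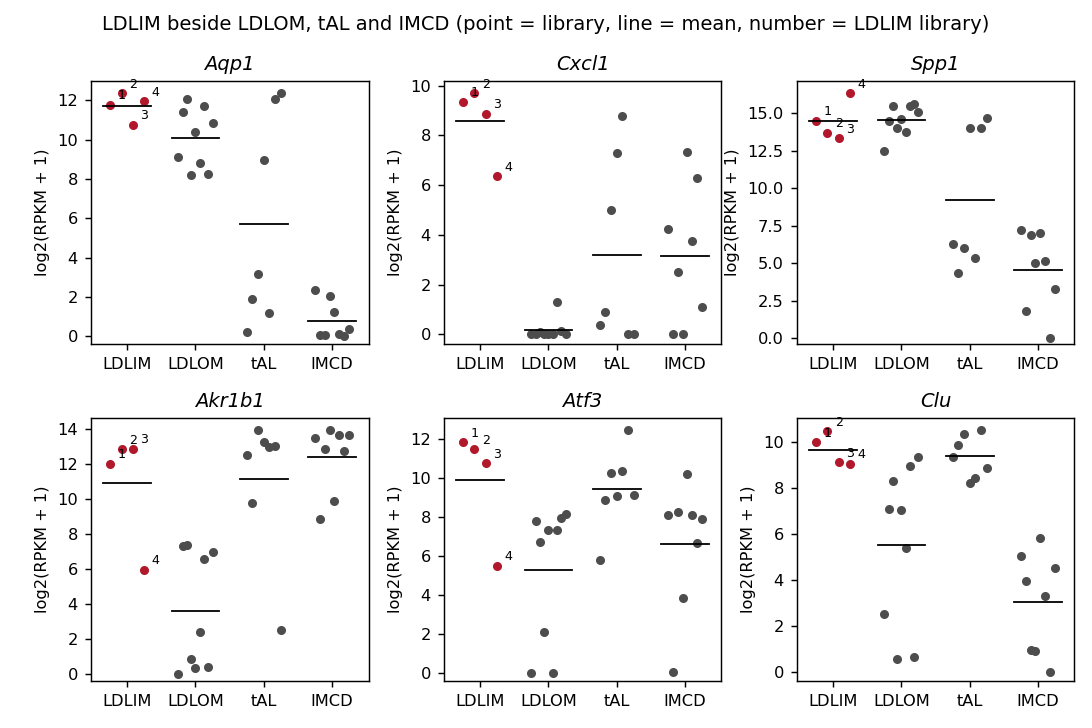
Levels of Aqp1, Cxcl1, Spp1, Akr1b1, Atf3 and Clu as log2(RPKM + 1) in each library of LDLIM (red, numbered), LDLOM, tAL and IMCD, with lines at the group means. LDLIM 4 is low for Cxcl1, Akr1b1 and Atf3 and high for Spp1, and 3 tAL libraries share high Aqp1 and Spp1 with LDLIM.

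Against IMCD, which runs beside LDLIM in the same tissue, limma called 367 genes (3.31%), 175 higher (1.58%) and 192 lower (1.73%), with a median over all genes of -0.01. The balance turned with the setting: without LDLIM 4, 379 genes were called, 239 higher and 140 lower, and after quantile normalization 403, 221 higher and 182 lower. With these 2 groups alone it was 159, 69 higher and 90 lower. In 75 of the 175 higher and 61 of the 192 lower genes the groups did not overlap, again without a share over all genes. Aqp1 and Spp1 led the higher ones: Aqp1 was 10.93 ± 1.23 above IMCD, which ran from 0.0294 to 4.08 RPKM, and Spp1 was 9.92 ± 1.62 above it (adjusted p = 3.1e-06), or 9.29 without LDLIM 4. Fhl2 followed with 7.36 ± 1.25 and Tspan8, a tetraspanin membrane protein, with 213, 411, 239.8 and 427 RPKM in LDLIM, against 0, 0.103 and 7.78 RPKM (lowest, median and highest) in IMCD (7.31 ± 1.36; adjusted p = 5.3e-05). Bgn and Bst1 were 7.18 ± 1.23 and 7.05 ± 1.08 higher, also without overlap.

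The 6 largest lower genes without overlap were Aqp2, Ly6al, Fxyd4, Guca2a, Aqp4 and Muc20. Aqp2 held 4.38, 4.46, 2.56 and 9.00 RPKM in LDLIM, against 1972, 6087 and 15830 RPKM in IMCD (-10.21 ± 1.30; adjusted p = 1.2e-09). Fxyd4, a regulator of the sodium pump in collecting ducts, held 5.27, 0.276, 9.65 and 0.448 RPKM, against 453, 1183 and 6273 RPKM (-8.65 ± 1.14). Guca2a, which encodes the peptide guanylin, held 0.158, 0.303, 0.0659 and 0.0224 RPKM, against 117, 619 and 1018 RPKM (-8.65 ± 0.78). IMCD libraries were above every LDLIM library in all 3. Aqp4, a basolateral water channel, Ly6al and the mucin Muc20 differed by -8.11 ± 0.74, -9.19 ± 1.20 and -8.09 ± 0.85. Of the 10 principal cell markers 7 were lower, and of the 6 inner medullary collecting duct markers 5, or 4 without LDLIM 4.

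The chemokines and cytokines went both ways between the 2 segments of the inner medulla. Of 22 tested, 3 were higher in LDLIM (Cxcl1, Il1b and Spp1) and 3 lower (Ccl2, Ccl7 and Tnfsf9). The call of Il1b ended without LDLIM 1 or 3. That of Tnfsf9, which several IMCD libraries listed at 0, ended after quantile normalization. Ccl2 and Ccl7 encode chemokines that attract monocytes. Ccl2 held 19.6, 0.0488, 55.8 and 0 RPKM in LDLIM, against 0.343, 361 and 2468 RPKM in IMCD (-5.25 ± 0.97, or -4.40 without LDLIM 4; adjusted p = 4.9e-05), and Ccl7 0, 0, 18.2 and 0 RPKM, against 0.110, 102 and 319 RPKM (-5.03 ± 0.57; adjusted p = 2.2e-11). Cxcl1 held 0, 8.57 and 159 RPKM in IMCD and was 5.42 ± 0.85 higher in LDLIM (adjusted p = 1.1e-06), or 6.16 without LDLIM 4. In the osmolyte list, Nfat5 (3.40 ± 0.91) and Clu (6.60 ± 1.39) were higher in LDLIM, Nfat5 not without LDLIM 1 (adjusted p = 0.051) or with a pseudocount of 0.1 (0.14), and Akr1b1 was not called (-1.46; adjusted p = 0.85), with an IMCD range of 469 to 15727 RPKM. Vim held 0.0108, 0.660 and 31.8 RPKM in IMCD and was 6.52 ± 1.29 higher in LDLIM without overlap (adjusted p = 0.00019). Transcription factors of the collecting duct were lower: the difference was -5.64 ± 0.77 for Gata3, -4.59 ± 0.61 for Elf5 and -3.86 ± 0.59 for Tbx3, while Irx3 was 3.39 ± 0.82 higher, a call that ended after quantile normalization (adjusted p = 0.1).

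The genes whose means over the 14 segments were most like those of the markers were sought by Pearson's r of log2(mean RPKM + 1), as a description of 14 points that share libraries and depth. For Aqp1 these were the chloride intracellular channel protein Clic4 (r = 0.956), the peptidase Cpq (0.952), the pantetheinase Vnn1 (0.939), Tmem174 (0.929) and the membrane linker moesin, Msn (0.925). Clic4 held 230.3, 221, 137 and 281 RPKM and was 4.56 ± 0.97 above the pool, but its LDLIM mean was 1.41 RPKM in the second table, where the call ended (adjusted p = 0.8). For Cxcl1 they were Plekhn1 (0.969), the chromatin remodeller Smarca1 (0.968), Xkr6 (0.962), the tachykinin gene Tac4 (0.961) and the small GTPase gene Rnd1 (0.958). Tac4 held 94.6, 204, 70.6 and 0 RPKM (4.73 ± 0.59 above the pool) and Rnd1 337, 253, 101.3 and 0.00548 RPKM (4.98 ± 0.81), both listed at 0 or near it in LDLIM 4, without which they differed by 6.44 and 6.90. For Egfl6 they were Vopp1 (0.909), the sodium-potassium-chloride cotransporter Slc12a2 (0.895), the peroxisomal protease Lonp2 (0.886), Trappc13 (0.861) and the histone gene Hist3h2a (0.858). Of these 5, only Vopp1 was called against the pool (3.42 ± 0.88; adjusted p = 0.0065). Its difference was 4.10 without LDLIM 4, and the call ended without LDLIM 1 or 2 (adjusted p = 0.079 and 0.07).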

How the data were processed

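The RPKM values were deposited by the authors, per RefSeq transcript and library; the build was rn5 and the tools listed, with no order or settings, were HOMER, SAMtools, STAR 2.3.0-r192 and Trimmomatic 0.32, per the submitters' processing notes. The main table was made with polyadenylation-site data and the second without; how is not stated. Of 17974 entries, 17144 gene symbols remained once 503 symbols with several transcripts had been reduced to the most abundant one. A gene was tested if 4 or more tubule libraries reached 1 RPKM (11078 genes). log2(RPKM + 1) was fitted by segment with limma 3.58.1 (trend, R 4.3.3) and p-values were adjusted by the Benjamini-Hochberg method over all genes. The models were tested on simulated data first. For simulated log2 changes of 2 and 4, 6% and 69% of 100 genes each were called against the pool. Against IMCD 2% and 48% were called. Of the unchanged genes in those data, 11 and 6 were called for the pool and IMCD. How often genes are missed or wrongly called among the deposited libraries was not tested. A gene that was not called may thus still differ. Exact permutation tests, values and figures used Python 3.11.15 with scipy 1.17.1.

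Gene lists, markers and tests were chosen with earlier results of these data known. The genes named were the 12 largest positive and 8 largest negative called differences against the pool, all selective genes, the 10 with the highest LDLIM mean, the 6 largest without overlap in each direction for each neighbour, the 5 most like each marker, and members of the lists. A few genes that these rules name are not reported here. The alternatives changed the pseudocount (0.1), dropped the low-value filter, quantile-normalized the values, used the other table, blocked on replicate number, adjusted for detected genes, left out each LDLIM library or the 14 libraries with fewer than 2500 genes, or fitted the compared groups alone; a pool without tAL was added after the data were seen. Samples of glomeruli, of whole kidney and of the water-load experiment were not used here. RPKM carry no stated depth, so no counting intervals are given.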

Additional observations from a re-analysis of the deposited data

Results flagged for a closer look

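Among 154 genes checked, 17 had an LDLIM library whose gap to the other 3 on the log2(RPKM + 1) scale passed Dixon's 95% critical value for 4 samples. By chance about 1 in 20 is flagged where values are normal and untied, or 7.7 genes here. With the other 3 libraries at 0, any value is flagged, as for Cxcl2, Ccl7, Pck1 and Tnfsf9. Many of the genes were also chosen by their LDLIM levels, so 7.7 is no firm expectation. LDLIM 4 was the distant library for 8 genes, LDLIM 3 for 6, LDLIM 1 for 2 and LDLIM 2 for 1.

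LDLIM 4 was low for Akr1b1 (60.8 RPKM, against 4152 to 7507 in the others), Pla2g7 (0, against 52.4 to 76.8), H3f3b (991, against 3193 to 3695), Nfat5 (45.1, against 77.9 to 83.3), Nfkbia (0.0215, against 427 to 505) and Egr1 (82.6, against 718 to 884). It was high for Cldn23 (198 RPKM, against 0 to 0.864) and Defb1 (0.522, against 0 to 0.0429). LDLIM 3 was high for Avpr2, the vasopressin receptor (50.4 RPKM, against 0.0116 to 0.589), Ccl7 (18.2, against 0), Xkr6 (14.8, against 0 to 0.0106) and Muc20 (9.14, against 0.00569 to 0.245). LDLIM 3 was also high, at low levels, for Car12 (1.96 RPKM) and Pck1 (0.0138 RPKM, against 0). LDLIM 1 was the one library with a value for Cxcl2 (8.43 RPKM, against 0) and Tnfsf9 (0.276 RPKM, against 0), and LDLIM 2 was high for Umod (0.312 RPKM, against 0 to 0.0076).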

How the results depend on the processing

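Of the genes named, 0 changed direction against the group in which they were called under any of the alternatives run, but many calls were lost. With only the groups compared, 48 of 113 lost the call against the pool, 37 of 42 against LDLOM, 18 of 19 against tAL and 18 of 58 against IMCD. Leaving out LDLIM 1 ended 40 of 111 pool, 20 of 51 LDLOM, 4 of 21 tAL and 8 of 62 IMCD calls, against 15 of 113, 5 of 53, 1 of 23 and 3 of 64 without LDLIM 4. Detected genes as a covariate ended 20 of 53 LDLOM calls and dropping libraries under 2500 genes 18 of 53. The pool count of 700 moved by over 1.5 times under only the groups compared (393). For LDLOM (300) it was 97 when detected genes were a covariate, 137 by quantile normalization, 128 when libraries under 2500 genes were dropped, 513 with the replicate block and 6 for the groups alone. For tAL (84) and IMCD (367) the groups alone gave 2 and 159. The 11 selective genes became 5 with a pseudocount of 0.1, 27 without the filter, and 25 without tAL. Leaving out each LDLIM library in turn gave 361 to 865 genes for the pool, 159 to 590 for LDLOM, 53 to 188 for tAL, 292 to 379 for IMCD and 6 to 43 selective. In each of the 5 the highest count came without LDLIM 4, whereas the lowest came without LDLIM 1 or 3. The causes were not tested.

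Without libraries under 2500 genes, the exact permutation tests of Cxcl1 against tAL (4.85, adjusted p = 0.064) and Egfl6 against LDLOM (3.18, adjusted p = 0.061) lost their calls. Leaving out LDLIM 1 or 2 also ended both, LDLIM 3 ended Cxcl1 against tAL and made Aqp1 pass against LDLOM. Leave-one-out log2 differences ran from 5.00 to 6.11 for Cxcl1 against tAL, 4.32 to 4.40 for Egfl6 against LDLOM and 1.40 to 1.94 for Aqp1 against LDLOM.

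Over 52 pairs of same-numbered libraries the correlation of deviations was -0.141 to 0.0696. What correlation libraries of the same rat would show is unknown, so whether same-numbered libraries share a rat was not tested. The replicate block gave 969 genes for the pool, 513 for LDLOM, 117 for tAL, 400 for IMCD (220 higher, 180 lower) and 10 selective genes. RPKM hide the depth, so a listed 0 may be a missed transcript.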
